A study of Mus musculus with 12 samples.

Results

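The 10 genes Gata1, Gata2, Klf1, Gfi1b, Tal1, Nfe2, Zfpm1, Lmo2, Ldb1 and Cbfa2t3 encode transcription factors and cofactors of the erythroid and megakaryocyte lineages. They were chosen by name, as every probe set (a group of short oligonucleotides that reads 1 transcript) whose platform annotation gives exactly 1 of these symbols. This gave 15 of 45037 probe sets and 10 of 18193 genes, with 1 probe set each for 7 genes, 2 each for Gata2 and Zfpm1, and 4 for Cbfa2t3. No filter on low values was applied, so that every member was tested, and each gene is led by its brightest probe set, taken by the mean of the 12 arrays. RNA of sorted liver cells had been hybridized to 12 Affymetrix MG430 v2 arrays, 3 for each of 4 groups, and all values are log2 RMA values, on which a difference of 1 is a 2-fold change. The groups were short-term hematopoietic stem cells (ST-HSC) of homozygous PU.1 Q202L knock-in (KI) mice, ST-HSC of wild-type (WT) littermates, granulocyte-macrophage progenitors (GMP) of WT mice, and the GMP-like cells that KI mice have in their place. All mice were taken at or just before birth and were of strain C57Bl/6 by the sample records, and the records name no other allele and no treatment. Q202L is a point mutation of the Ets domain of PU.1 that was selected because it impairs binding to c-Jun. It is present in every cell of the animal and is lethal around birth. The sources used here do not say which founder line or which animals gave each sample, so the p-values reflect only how these samples vary, and this variation could be technical. The records and the paper differ on the gates: CD48-positive against CD48-negative for ST-HSC, and CD34-positive against CD34-intermediate for the KI GMP-like cells, and the records give newborn where the paper gives fetal liver, and a different strain background.

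PU.1 and GATA-1 bind each other and each limits the activity of the other, and this antagonism is a textbook model for the choice between the myeloid and the erythroid-megakaryocyte fate. In early progenitors GATA-2 occupies GATA sites of many genes that GATA-1 takes over as red cells and megakaryocytes mature. GATA factors work in a complex in which TAL1, bound to an E-box, is joined to GATA by the adaptors LMO2 and LDB1. The corepressor ETO2, encoded by Cbfa2t3, restrains this complex until maturation. FOG1, encoded by Zfpm1, is the cofactor that binds GATA-1 directly, and KLF1, GFI1B and NF-E2 act beside or downstream of it.

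RefSeq promoters, from 250 bases before to 50 after an annotated start (GRCm38.p6), were held for 8 of the 10 genes, as 13 promoters. The 4 below are shown because their genes stand at the center of the results. Gfi1b had the best supported rise, and Gata1 is the partner and antagonist of PU.1. Klf1 had large differences with a wide spread, and Cbfa2t3 is the 1 of these 8 genes with a match to a PU.1 motif. Capitals mark matches, on either strand, to the GATA motifs AGATAA and TGATAA and to the PU.1 motifs GAGGAAGT and AGAGGAAG, which overlap each other. All are written 5′ to 3′ on the strand of the gene.
Gfi1b, chr2:28621933-28622232, minus strand: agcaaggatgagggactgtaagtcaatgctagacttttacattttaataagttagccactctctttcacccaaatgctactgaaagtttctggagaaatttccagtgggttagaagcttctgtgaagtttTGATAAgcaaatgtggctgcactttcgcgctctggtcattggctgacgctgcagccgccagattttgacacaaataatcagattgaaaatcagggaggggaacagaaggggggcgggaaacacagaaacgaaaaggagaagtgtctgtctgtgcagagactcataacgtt
Gata1, chrX:7967861-7968160, minus strand: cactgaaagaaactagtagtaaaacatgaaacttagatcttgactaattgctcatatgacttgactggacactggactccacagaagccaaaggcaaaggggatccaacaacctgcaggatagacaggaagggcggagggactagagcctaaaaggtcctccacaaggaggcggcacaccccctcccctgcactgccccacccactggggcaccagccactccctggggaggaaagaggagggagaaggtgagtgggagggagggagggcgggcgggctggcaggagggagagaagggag
Klf1, chr8:84901732-84902031, plus strand: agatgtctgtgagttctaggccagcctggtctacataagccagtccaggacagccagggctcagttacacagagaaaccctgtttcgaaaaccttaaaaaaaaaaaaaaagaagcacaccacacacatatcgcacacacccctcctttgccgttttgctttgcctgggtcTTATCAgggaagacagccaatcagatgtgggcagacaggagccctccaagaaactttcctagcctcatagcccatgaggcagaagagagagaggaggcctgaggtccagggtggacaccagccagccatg
Cbfa2t3, chr8:122699060-122699359, minus strand: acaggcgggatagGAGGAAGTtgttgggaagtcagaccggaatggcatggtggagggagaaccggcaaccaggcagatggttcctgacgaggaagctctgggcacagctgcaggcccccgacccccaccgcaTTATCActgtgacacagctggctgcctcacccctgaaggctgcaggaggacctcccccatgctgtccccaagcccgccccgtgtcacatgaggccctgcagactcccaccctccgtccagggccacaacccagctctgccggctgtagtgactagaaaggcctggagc

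A GATA motif was present in 5 of the 13 promoters, those of Klf1 and Gfi1b and 1 each of Tal1, Ldb1 and Cbfa2t3, against 18.6% of all 32851 promoters of the same length. In Gfi1b the match TGATAA lies at bases 131 to 136 of the printed stretch, and in Klf1 the reverse complement of TGATAA lies at bases 171 to 176. The PU.1 motif was present in 1 of the 13, at bases 14 to 21 of the Cbfa2t3 promoter, against 6.68% of all promoters. The E-box CANNTG, the site of TAL1 and its partners, was present in 8 of the 13 against 72.3% of all. The KLF motif CCNCNCCC was present in 11 of the 13 against 49.5% of all, with 3 matches in the Gata1 promoter. These letters are short, the promoters of 1 gene share sequence context, and a match is a description of the window and not a measured site.

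Xist, a noncoding RNA made from the silenced X chromosome in females, was at 10.67 to 11.74 in WT replicates 1 and 3 of both populations, and at 2.98 to 3.78 in the 6 KI arrays and in WT replicate 2 of both populations. KI and WT therefore differ in the share of arrays with a high Xist level. The 10 members were also fitted with the Xist level as a covariate and without the 4 WT arrays of high Xist. Calls of the gene lists were counted in these fits as well. Values of single list, marker and gate genes are given from the fit of all 12 arrays only. The array medians were 5.00 to 5.10 in ST-HSC and 4.70 to 4.79 in GMP, so that KI was compared with WT within a population and levels of the populations are only given side by side. The mean over 6 GMP markers was lower in the KI GMP-like cells, at 9.71 to 10.28 against 11.42 to 11.53 in WT GMP. Not all of these genes fell, and Ms4a3 had by far the largest difference (−6.83). Ms4a3 was at 11.30 to 11.47 in WT GMP and 4.22 to 5.06 in the KI GMP-like cells. Elane (difference −1.61, adjusted p = 0.0865) and Prtn3 (−1.10, 0.112) had all KI arrays below WT. Mpo (−0.07, 0.881), Ctsg (0.02, 0.985) and Csf3r (0.27, 0.772) differed little, with overlapping arrays. Mpo was at 12.83 or more on all 12 arrays, ST-HSC included. Some genes of the sort gates also moved with the genotype. In ST-HSC Slamf1, which encodes CD150, was at 6.50 to 6.54 in KI and 4.05 to 4.90 in WT (adjusted p = 0.00132), the Fc receptor gene Fcgr3 rose by 1.68 (0.00165) and Cd34 fell by 1.41 (0.00103). In GMP Cd34 fell by 2.87 (6.98e-06), while Slamf1 (0.14, 0.869) and Fcgr3 (0.63, 0.157) did not pass. Cd48 differed by 0.16 (0.742) in ST-HSC and −0.02 (0.981) in GMP, and Kit by −0.20 (0.85) and 0.30 (0.71). The Fc receptor gene Fcgr2b was at −1.30 (0.397) and −2.13 (0.109). Flt3, a gene of multipotent progenitors, fell by 2.69 in ST-HSC (0.0215). A difference in the cells that the gates enclosed and a change within like cells cannot be told apart. The stem cell gene Mecom was at 6.61 to 7.39 in the 6 ST-HSC arrays and at 2.18 to 3.39 in the 6 GMP arrays. Of the mature red cell markers, Hba-a1 was at 3.18 to 3.98 on all arrays, where the 25th percentile of all probe sets was 3.31 to 3.63, while the heme enzyme gene Alas2 was at 4.66 to 4.90 in KI ST-HSC and 3.54 to 4.06 in WT ST-HSC. The membrane protein gene Slc4a1 was at 4.20 to 4.88 on 9 arrays and at 7.63 in WT ST-HSC replicate 3, 6.43 in KI GMP-like replicate 1 and 6.02 in WT GMP replicate 3. Of the platelet genes, Ppbp was at 2.18 to 3.62 on all arrays, Gp9 at 7.22 to 7.44 in both ST-HSC groups, and Pf4 at 8.69 to 9.47 in KI ST-HSC and 4.65 to 7.18 in WT ST-HSC. Globin probe sets that carry several gene symbols were not read. The mean of 5 hepatocyte genes was 6.34 to 7.62 in WT ST-HSC and 5.80 to 5.94 in KI ST-HSC, and the mean of 8 macrophage genes 4.19 to 4.68 and 3.81 to 3.91. In WT GMP and KI GMP-like cells these means were 5.66 to 7.12 and 5.22 to 5.94, and 4.08 to 4.56 and 3.80 to 4.0. Of the hepatocyte genes, Afp differed by −1.53 in ST-HSC (limma adjusted p = 0.00582) and −1.92 in GMP (0.0021), and the others did not pass. The part of the hepatocyte and macrophage genes in the results was not tested. In sorted bulk samples a higher level cannot be told apart from a higher share of cells that express the gene.

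In KI ST-HSC, most of these factors stood above WT ST-HSC. Gfi1b, Gata2 and Nfe2 rose, by 2.92, 1.86 and 0.80 on the log2 scale, and no member fell. Thus 3 of 10 members were called higher by limma at an adjusted p under 0.05, against 1.33% of all genes, and 0 were called lower, against 1.68%. At an unadjusted p under 0.05 the counts were 7 higher and 0 lower, against 7.00% and 7.32% of all genes. The methods' t-test called 0 in either direction after adjustment, but it called only 7 of all 45037 probe sets in ST-HSC and 2 in GMP. Before adjustment it gave 5 higher and 1 lower in ST-HSC, against 6.41% and 6.96%. In 8 of 10 genes all 3 KI arrays lay above all 3 WT arrays, against 10.9% of all genes, and in 1, Lmo2, all lay below, against 11.2%. The median difference of the members was 0.94, and that of all genes −0.02. With the Xist level as a covariate 1 member was called higher (Gfi1b), and without the WT arrays of high Xist 2 were (Gfi1b and Gata2). When the probe sets of each gene were averaged, 6 were called. Over all 15 probe sets 5 were called, against 2.21% of all probe sets, and either direction held 3.01% of all genes.

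Between KI GMP-like cells and WT GMP, Gfi1b and Nfe2 rose and Lmo2 fell. Of 10 members 2 were called higher, against 1.19% of all genes, and 1 lower, against 1.40%. At an unadjusted p under 0.05 the counts were 4 higher and 1 lower, against 6.67% and 9.19%. The KI arrays all lay above the WT arrays in 6 genes (8.26% of all genes) and all below in 1 (11.1%). The median difference was 0.69 for the members and −0.03 for all genes. The call count depended on the setting: 1 was higher (Gfi1b) and 0 lower with the Xist level as a covariate, 0 and 0 without the WT arrays of high Xist, and 4 were higher with a filter on low probe sets. Over all 15 probe sets 4 were called, against 2.13% of all probe sets, and either direction held 2.59% of all genes.

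**Figure D1:**
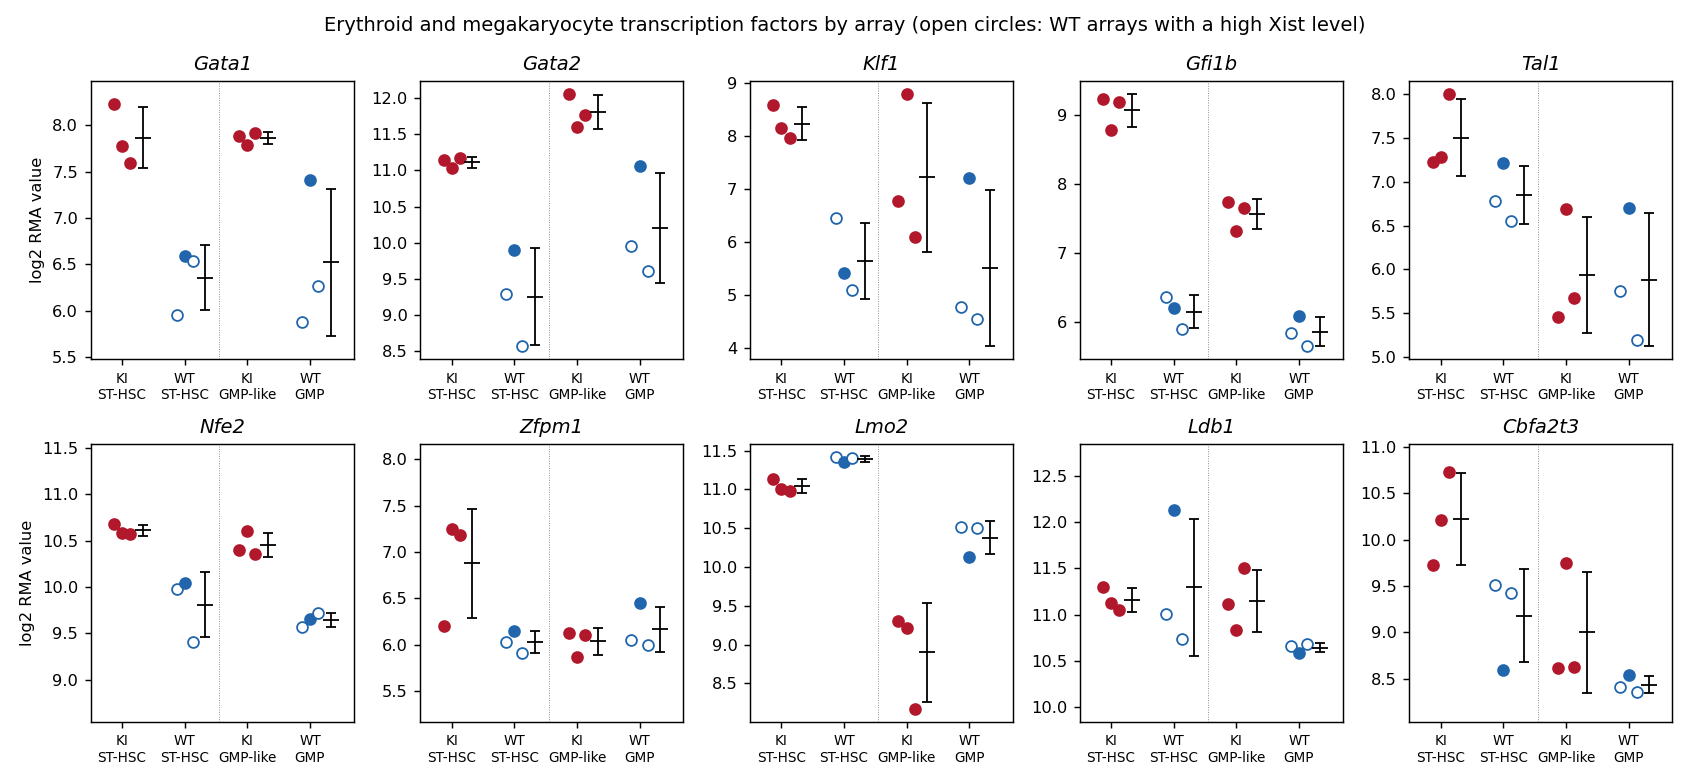
Log2 RMA value (vertical axis) of the leading probe set of each of the 10 genes in every array, by group and on an axis of its own range per gene, with the mean and SD (n = 3) as a bar beside the points; open circles are WT arrays with a high Xist level. The 3 KI ST-HSC arrays of Gfi1b, at 8.79 to 9.23, lie above all WT ST-HSC arrays, at 5.90 to 6.36, while for Klf1, Gata1 and Tal1 the WT GMP array of low Xist lies above the other WT GMP arrays.

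Gfi1b, a repressor that red cell and megakaryocyte precursors need, showed the best supported difference of the set in both populations. Its values in KI ST-HSC replicates 1 to 3 were 9.23, 8.79 and 9.19, and in WT ST-HSC they were 6.36, 6.20 and 5.90. The groups were separated by more than 2 log2 units, and the spread within each was small, with an SD of 0.243 and 0.236 (n = 3 each). The difference was 2.92 (standard error 0.19, 95% confidence interval 2.50 to 3.34), a 7.57-fold higher level in KI, with a limma adjusted p of 3.83e-05. In KI GMP-like cells Gfi1b was at 7.74, 7.32 and 7.65, and in WT GMP at 5.84, 6.09 and 5.66. These groups did not overlap either, with a difference of 1.71 (standard error 0.19, adjusted p = 0.00142), a 3.27-fold higher level. The difference in GMP was smaller than in ST-HSC by 1.21 (95% confidence interval 0.62 to 1.81), which had an unadjusted p of 0.000983 and did not pass adjustment over all probe sets (adjusted p = 0.178). Both calls held without any 1 of the 12 arrays, with adjusted p of 8.23e-05 to 0.000499 in ST-HSC and 0.00188 to 0.0085 in GMP. Only the methods' t-test (adjusted p = 0.0742 and 0.18) and, in GMP, the fit without the WT arrays of high Xist (1.48, adjusted p = 0.0683) missed the threshold.

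The GATA factors were both higher in KI arrays, and neither passed the test in every setting. Gata2, the GATA factor of stem cells, early progenitors and mast cells, was at 11.14, 11.03 and 11.17 in KI ST-HSC and at 9.30, 9.90 and 8.57 in WT ST-HSC. The KI arrays lay within 0.14 of each other and above every WT array. The difference was 1.86 (standard error 0.382, adjusted p = 0.0325), and on the second probe set it was 1.71 (adjusted p = 0.0335). In KI GMP-like cells Gata2 was at 12.06, 11.60 and 11.76, and in WT GMP at 9.95, 11.06 and 9.61. Here too the groups did not overlap, while WT replicate 2 came within 0.55 of the lowest KI array. The difference of 1.60 did not pass on the leading probe set (adjusted p = 0.0639) and 1.72 passed on the second (adjusted p = 0.036). On the leading probe set the GMP difference was 0.85 with the Xist level as a covariate (adjusted p = 0.18). It was 0.75 without the WT arrays of high Xist. The ST-HSC call of Gata2 was lost without any 1 of the KI ST-HSC arrays (adjusted p of 0.101 to 0.113), WT ST-HSC replicate 1 (0.0694), WT ST-HSC replicate 3 (0.104) or KI GMP-like replicate 3 (0.0505). It was also lost in a fit of the 6 ST-HSC arrays alone (0.0522) and with the Xist level as a covariate (1.10, adjusted p = 0.0815), but not in the fit that left out the WT arrays of high Xist (1.21, adjusted p = 0.0444).

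Gata1, on the X chromosome, drives the maturation of red cells and megakaryocytes. Its values were 8.23, 7.78 and 7.59 in KI ST-HSC and 5.95, 6.59 and 6.53 in WT ST-HSC. All KI arrays lay above all WT arrays, and the difference of 1.51 (standard error 0.346, 95% confidence interval 0.74 to 2.28) fell just short of the threshold, at an adjusted p of 0.0543. In KI GMP-like cells the values were 7.88, 7.79 and 7.92, and in WT GMP 5.88, 7.41 and 6.27. The KI arrays were nearly equal, with an SD of 0.0662 (n = 3), and the WT arrays spread over 1.5 log2 units. The difference of 1.34 did not pass (adjusted p = 0.0813). WT GMP replicate 2, the array of low Xist, held the highest WT value. Without it the difference was 1.79 (adjusted p = 0.0076), and with the high-Xist WT arrays left out it was 0.45 (adjusted p = 0.583). In ST-HSC the difference was 0.93 (adjusted p = 0.195) with the Xist level as a covariate and 1.28 (0.0624) with the high-Xist WT arrays left out. The ST-HSC difference of Gata1 passed in 7 of 25 alternatives, among them the filter on probe sets below a log2 of 6 (0.0354). For Gata1 and Gata2 the differences in the populations were close, with a difference between them of −0.17 (95% confidence interval −1.25 to 0.92, adjusted p = 0.966) and −0.26 (−1.46 to 0.94, adjusted p = 0.948).

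**Figure D2:**
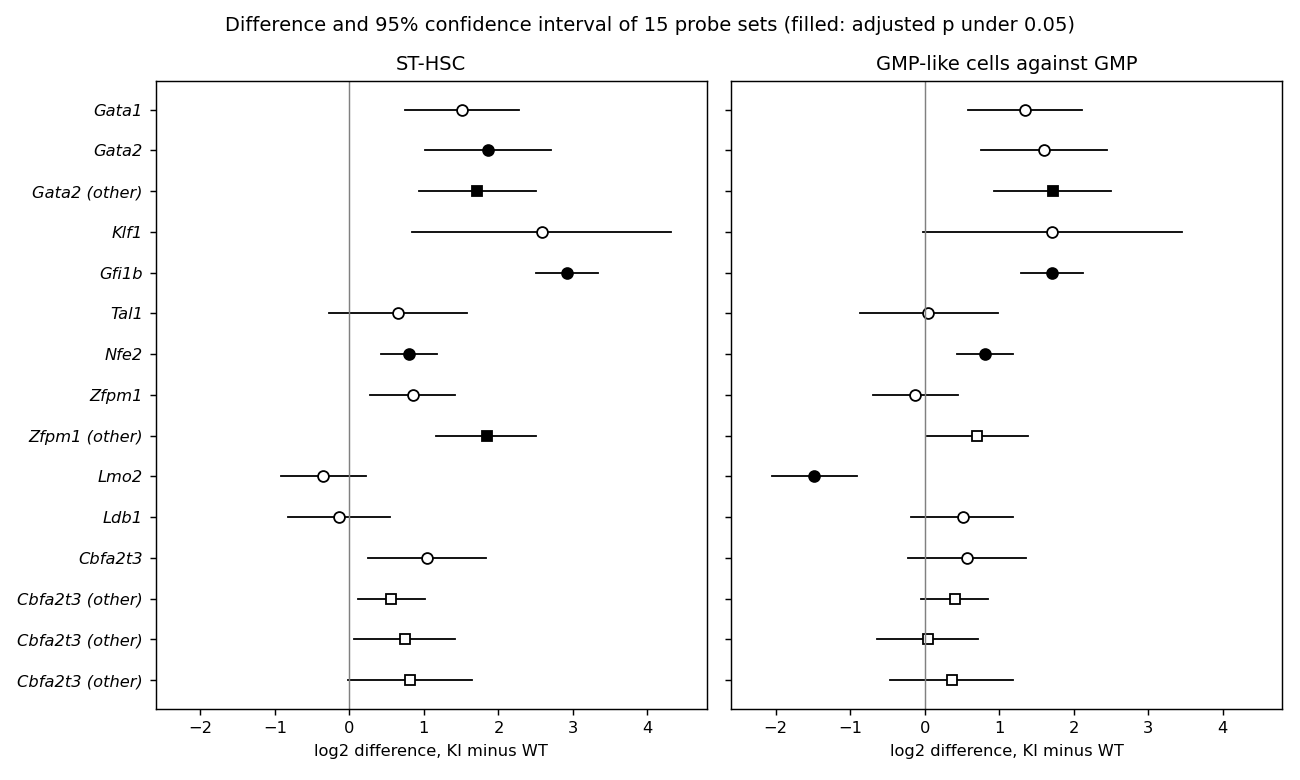
Log2 difference of KI minus WT (horizontal axis) with its 95% confidence interval for each of the 15 probe sets in ST-HSC (left) and GMP (right); circles are leading and squares other probe sets, filled where the adjusted p was under 0.05. Gfi1b, at 2.92 and 1.71, has narrow intervals, and Klf1, at 2.58 and 1.71, the widest.

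Klf1, which switches on globin and other red cell genes at CACCC sites, had a large difference and a wide spread. It was at 8.58, 8.16 and 7.96 in KI ST-HSC and at 6.46, 5.41 and 5.09 in WT ST-HSC. These groups did not overlap, but the difference of 2.58 (standard error 0.784) did not pass the test (adjusted p = 0.153), since the fit shares 1 spread among the 4 groups and the GMP arrays of Klf1 were scattered. In a fit of the 6 ST-HSC arrays alone the adjusted p was 0.0304. In KI GMP-like cells the values were 6.78, 8.80 and 6.09, and in WT GMP 4.77, 7.21 and 4.55. Replicate 2 was more than 1.5 log2 units above the others in both groups, the groups overlapped, and the difference was 1.71 (95% confidence interval −0.02 to 3.45, adjusted p = 0.357). Against WT GMP replicate 2 alone the mean of the KI arrays differed by 0.01.

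Nfe2, the p45 subunit of NF-E2 that platelet formation requires, was higher in KI by a similar amount in both populations. It was at 10.68, 10.58 and 10.57 in KI ST-HSC and at 9.98, 10.04 and 9.41 in WT ST-HSC, and at 10.40, 10.60 and 10.35 in KI GMP-like cells and 9.57, 9.65 and 9.72 in WT GMP. In neither population did the groups overlap. Nfe2 rose by 0.80 (standard error 0.168, adjusted p = 0.0356) in ST-HSC and 0.81 (adjusted p = 0.0372) in GMP, and the difference between these was 0.01 (95% confidence interval −0.52 to 0.53, adjusted p = 0.998). These calls were close to the threshold. In ST-HSC the call was lost without any 1 of the KI ST-HSC arrays (adjusted p of 0.104 to 0.122), WT ST-HSC replicate 3 (0.07), KI GMP-like replicate 1 (0.0507) or any 1 of the WT GMP arrays (0.0517 to 0.0538). In GMP it was lost without any 1 of the KI ST-HSC (0.0597 to 0.0679), KI GMP-like (0.0738 to 0.0914) or WT GMP arrays (0.0826 to 0.107). With the Xist level as a covariate the values were 0.69 (adjusted p = 0.144) and 0.69 (0.154), and without the WT arrays of high Xist 0.57 (0.201) and 0.80 (0.132).

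The members of the complex that carries the GATA factors did not move together. Lmo2, the LIM-only adaptor between TAL1 and GATA, was at 9.31, 9.22 and 8.17 in KI GMP-like cells and at 10.51, 10.13 and 10.50 in WT GMP. All KI arrays lay below all WT arrays, and Lmo2 fell by 1.48 (standard error 0.259, adjusted p = 0.0174), a 2.79-fold lower level. In ST-HSC it was at 11.14, 11.01 and 10.98 in KI and at 11.42, 11.35 and 11.40 in WT, again without overlap but with a difference of only −0.35 (adjusted p = 0.662). The difference between the populations was −1.13 (95% confidence interval −1.94 to −0.32, adjusted p = 0.418). The fall in GMP lost its call without WT GMP replicate 1 (adjusted p = 0.0623) or replicate 3 (0.0616), when only the 6 GMP arrays were fitted (0.15), with the Xist level as a covariate (0.0919) and without the WT arrays of high Xist (0.304).

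Tal1, the basic helix-loop-helix factor of the complex, was at 7.22, 7.28 and 8.0 in KI ST-HSC and at 6.78, 7.21 and 6.55 in WT ST-HSC. The KI arrays lay above the WT arrays by a margin as small as 0.01, and the difference was 0.65 (95% confidence interval −0.27 to 1.58, adjusted p = 0.593). In GMP the groups overlapped, with 5.46, 6.69 and 5.67 in KI and 5.75, 6.70 and 5.20 in WT (difference 0.05, 95% confidence interval −0.87 to 0.98, adjusted p = 0.98). Ldb1, the adaptor that dimerizes to bring distant sites together, was at 11.05 to 11.30 in KI ST-HSC and at 10.74, 11.01 and 12.13 in WT ST-HSC, where replicate 2 stood apart. Its difference was −0.14 (adjusted p = 0.921), and 0.28 (adjusted p = 0.697) without that array. In GMP Ldb1 was at 10.83 to 11.50 in KI and 10.59 to 10.68 in WT, a difference of 0.51 (adjusted p = 0.526) with no overlap.

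The cofactors were read by several probe sets, which differed among themselves. For Zfpm1, which encodes FOG1, the leading probe set was at 6.20, 7.25 and 7.19 in KI ST-HSC and at 6.03, 6.15 and 5.91 in WT ST-HSC, a difference of 0.85 (adjusted p = 0.153). On the other probe set Zfpm1 was at 7.22, 6.98 and 7.10 in KI and at 5.73, 5.28 and 4.78 in WT, and rose by 1.84 (standard error 0.305, adjusted p = 0.0105). KI replicate 1 was the low array of the leading probe set and the high one of the other, and without it the leading probe set passed as well (1.19, adjusted p = 0.0117). In GMP the probe sets gave −0.13 (adjusted p = 0.9) and 0.70 (adjusted p = 0.323), opposite in sign. For Cbfa2t3, which encodes the corepressor ETO2, all 4 probe sets were higher in KI ST-HSC, by 0.56 to 1.04, and none passed on its own (adjusted p of 0.221 to 0.396). The leading one was at 9.73, 10.21 and 10.73 in KI and at 9.51, 8.60 and 9.43 in WT, with all KI arrays above. The mean of the 4 probe sets differed by 0.79 and passed (adjusted p = 0.0184). In GMP the differences were 0.04 to 0.57 with adjusted p of 0.427 to 0.979.

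**Figure D3:**
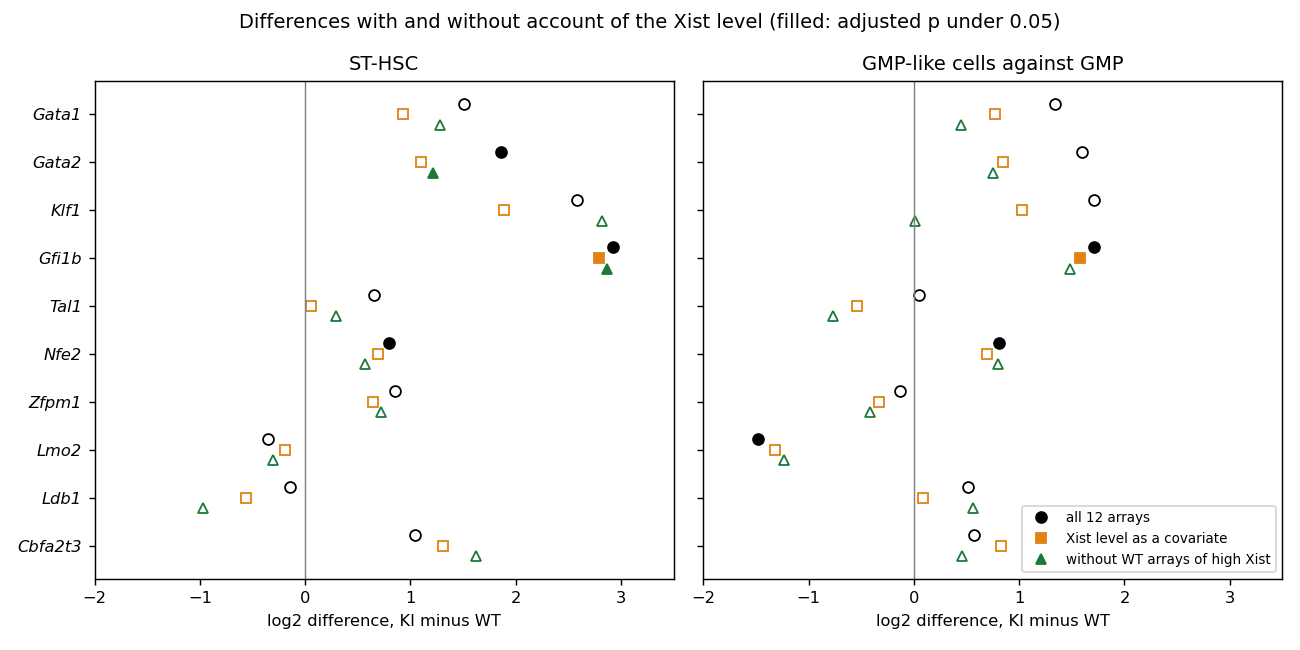
Log2 difference of KI minus WT (horizontal axis) of the 10 genes in ST-HSC (left) and GMP (right), from all 12 arrays (circles), with Xist as a covariate (squares) and without the 4 WT arrays of high Xist (triangles), filled where the adjusted p was under 0.05. Gfi1b stays at 2.79 to 2.92 in ST-HSC, while Klf1 in GMP runs from 1.71 to 0.01.

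The members of the WT GMP arrays also differed by replicate. Replicate 2, the WT GMP array of low Xist, was the highest of its group in 7 of 10 members: Gata1, Gata2, Klf1, Gfi1b, Tal1, Zfpm1 and Cbfa2t3. It exceeded the mean of replicates 1 and 3 by 2.55 in Klf1, 1.34 in Gata1, 1.28 in Gata2 and 1.23 in Tal1, and by 0.34 in Gfi1b. WT ST-HSC replicate 2 was the highest of its group in 6 of 10, with 0.97 in Gata2, 0.35 in Gata1 and −0.36 in Klf1. Of the 3 KI GMP-like arrays, replicate 2 was highest in Klf1, Tal1, Nfe2 and Cbfa2t3 and lowest in Gata1, Gata2, Gfi1b, Zfpm1 and Ldb1. Over 29 erythroid target genes, the mean level was 5.10, 5.47 and 5.38 in WT GMP replicates 1 to 3 and 5.98, 5.90 and 5.92 in the KI GMP-like arrays, so that replicate 2, the highest of its group in Klf1 in both, was the highest of these means in WT and the lowest in KI. The part of the Xist difference in the members' values was not tested beyond these fits.

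None of the 10 members differed between the populations in its KI minus WT difference after adjustment (limma, 0 of 10 called, against 0.0495% of all genes, 0.0275% higher and 0.0220% lower). At an unadjusted p under 0.05 the count was 3, all with a lower value in GMP than in ST-HSC: Gfi1b, Lmo2 and Zfpm1. Of all genes 4.72% were lower and 3.73% higher at that threshold. These p-values take the arrays of the populations as independent, and a shared source of arrays of equal number was not tested. A two-sided exact permutation test of 3 arrays against 3 cannot go below a p of 0.1, and no such test was used for single genes.

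Genes of the same pathways were counted from lists drawn up by function. Of 31 other regulators of these lineages, 1 rose in KI ST-HSC and 2 in KI GMP-like cells. In either 0 fell (0 and 1 at an unadjusted p under 0.05). Of all genes 1.33% and 1.19% rose, and 1.68% and 1.40% fell (7.32% and 9.19% at an unadjusted p under 0.05). The counts of the list that rose were 0 to 1 and 1 to 2 without any 1 array. The median difference of this list was 0.22 and 0.11. In ST-HSC the gene called was Lmo4, a LIM-only protein that binds LDB1, at 1.0 (adjusted p = 0.0271), while Sox6 (0.60, adjusted p = 0.11), the LDB1 partner Ssbp2 (0.51, adjusted p = 0.311) and Foxo3 (0.53, adjusted p = 0.385) did not pass. In GMP the cell cycle factor E2f2 rose by 2.51 (adjusted p = 0.00136, on 1 of 2 probe sets). The KLF1 target Klf3 rose by 1.23 (adjusted p = 0.0432, on 1 of 7 probe sets). Lmo4 (0.76, adjusted p = 0.0822) and Ikzf1 (0.49, adjusted p = 0.179) did not pass.

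Of 36 erythroid target genes, 29 were measured under 1 symbol. Of these 9 rose in KI ST-HSC and 3 in KI GMP-like cells, with 0 falling. Of all genes 1.33% rose and 1.68% fell in ST-HSC, and 1.19% rose and 1.40% fell in GMP. At an unadjusted p under 0.05, 18 and 8 of the list were higher and 0 lower. The shares of all genes were then 7.00% higher and 7.32% lower in ST-HSC, and 6.67% and 9.19% in GMP. The median difference of the list was 0.91 in ST-HSC and 0.16 in GMP. The 4 with the smallest p in ST-HSC were Kel, a blood group protein carried by red cells, at 3.31 (adjusted p = 0.00153), the membrane channel Rhag at 1.38 (0.00296), the heme synthesis enzyme Alas2 at 0.97 (0.00684) and the carbonic anhydrase Car1 at 3.32 (0.00856). Also called were Ermap, Tspo2, Add2 (on 1 of 5 probe sets), Ank1 (on 1 of 4) and Blvrb. In GMP Kel rose by 4.41 (adjusted p = 0.000285), Tspo2 by 1.86 (0.0034) and the biliverdin reductase Blvrb by 3.60 (0.00426), while the erythropoietin receptor Epor, at 2.23, did not pass (0.0694). Kel was at or below the 25th percentile of its array on 5 of 6 WT arrays and Rhag on all 6, so the size of their differences from WT is not resolved and may be understated. Rhag, Alas2 and Ermap did not pass in GMP, at −0.01, −0.27 and 0.09. Rhag was at or below that percentile on the 3 KI GMP-like arrays as well, so its GMP value cannot show whether the groups differ. The embryonic globins Hbb-bh1, Hbb-y and Hba-x differed by 0.08, −0.02 and −0.17 in ST-HSC, with means of at most 4.33. The mean level of the list was 6.81 to 7.02 in KI ST-HSC arrays and 5.72 to 6.16 in WT ST-HSC arrays. The ST-HSC count was 4 with the Xist level as a covariate, 3 with only the 6 ST-HSC arrays and 4 to 8 without any 1 array. Fewer of all genes were called higher with only the 6 ST-HSC arrays as well. Without any 1 array 102 to 238 of all genes were called higher in ST-HSC, against 242 in the main fit.

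Of 19 measured megakaryocyte target genes 3 rose in KI ST-HSC and 4 in KI GMP-like cells, and 0 fell (0 at an unadjusted p under 0.05). Of all genes 1.33% rose and 1.68% fell in ST-HSC, and 1.19% rose and 1.40% fell in GMP. The shares of all genes lower at an unadjusted p under 0.05 were 7.32% in ST-HSC and 9.19% in GMP. The median difference of the list was 0.73 and 0.44. Called in ST-HSC were the receptor Clec1b at 1.46 (adjusted p = 0.00712), the von Willebrand factor receptor chain Gp1bb at 1.72 (0.0321) and the platelet chemokine Pf4 at 3.49 (0.0483). The integrin chain Itgb3, at 1.98, did not pass (0.0725). In GMP Gp1bb rose by 2.86 (adjusted p = 0.0026), Mmrn1 by 3.18 (0.0102, on 1 of 2 probe sets) and Thbs1 by 2.66 (0.0414). Plek rose by 1.02 (0.0489, on 2 of 3 probe sets), while Pf4 was at −0.77 (0.756). The GMP count was 0 with only the 6 GMP arrays, and that of ST-HSC was 3 with only the 6 ST-HSC arrays. Fewer of all genes were called in GMP with only the 6 GMP arrays as well. The GMP count of 0 can therefore not be read as particular to the megakaryocyte genes. Without any 1 array the counts were 1 to 5 in ST-HSC and 2 to 3 in GMP.

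Mast cells and basophils depend on Gata2, and of 12 of their genes that were measured 3 rose in KI ST-HSC, and 2 rose and 1 fell in KI GMP-like cells. The carboxypeptidase Cpa3 rose in both, by 2.69 (adjusted p = 0.00062) and 1.57 (0.0157). The histidine decarboxylase Hdc (2.24, adjusted p = 0.0236) and Mcpt8 (1.57, 0.047) rose in ST-HSC, and the chymase Cma1 rose in GMP by 2.87 (0.0324). Ms4a2, the beta chain of the IgE receptor, fell by 5.21 in GMP (0.0106), and in ST-HSC it was at −2.51 (0.196). Mitf, a mast cell transcription factor, was at −2.27 (0.0614) in ST-HSC and −1.59 (0.184) in GMP, and Fcer1g at 0.68 (0.0803) in GMP. Of all genes 1.33% rose in ST-HSC, and in GMP 1.19% rose and 1.40% fell. Without any 1 array the list held 1 to 3 higher in ST-HSC, and 0 to 3 higher and 1 to 2 lower in GMP, with 0 higher without WT GMP replicate 1.

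Among 13 measured genes listed as myeloid factors opposed to GATA factors, 2 rose and 2 fell in KI ST-HSC, and 1 fell in KI GMP-like cells. Whether each of them opposes GATA factors was not tested, and Gfi1 is also among the other regulators above. Spi1, which encodes PU.1 itself, differed by 0.17 (adjusted p = 0.798) and 0.39 (0.384). Irf8, a factor of monocytes and dendritic cells, fell by 6.30 (adjusted p = 3.66e-05) and 3.18 (0.00291), and the HLH inhibitor Id2 fell by 3.85 in ST-HSC (0.0117). The granulocyte factor Cebpa rose by 1.21 (0.0305) in ST-HSC and was at 0.61 (0.278) in GMP, and the immediate early gene Egr1 rose by 2.63 (0.0181) and was at 2.16 (0.0502). Egr2 was at −1.23 (0.294) in GMP. Of all genes 1.33% rose and 1.68% fell in ST-HSC, and 1.40% fell in GMP. The ST-HSC counts were 0 to 2 higher and 1 to 2 lower without any 1 array, and 1 was higher with only the 6 ST-HSC arrays. No gene was higher without KI ST-HSC replicate 2 or 3 or WT ST-HSC replicate 2, and 1 was lower without KI ST-HSC replicate 2.

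**Figure D4:**
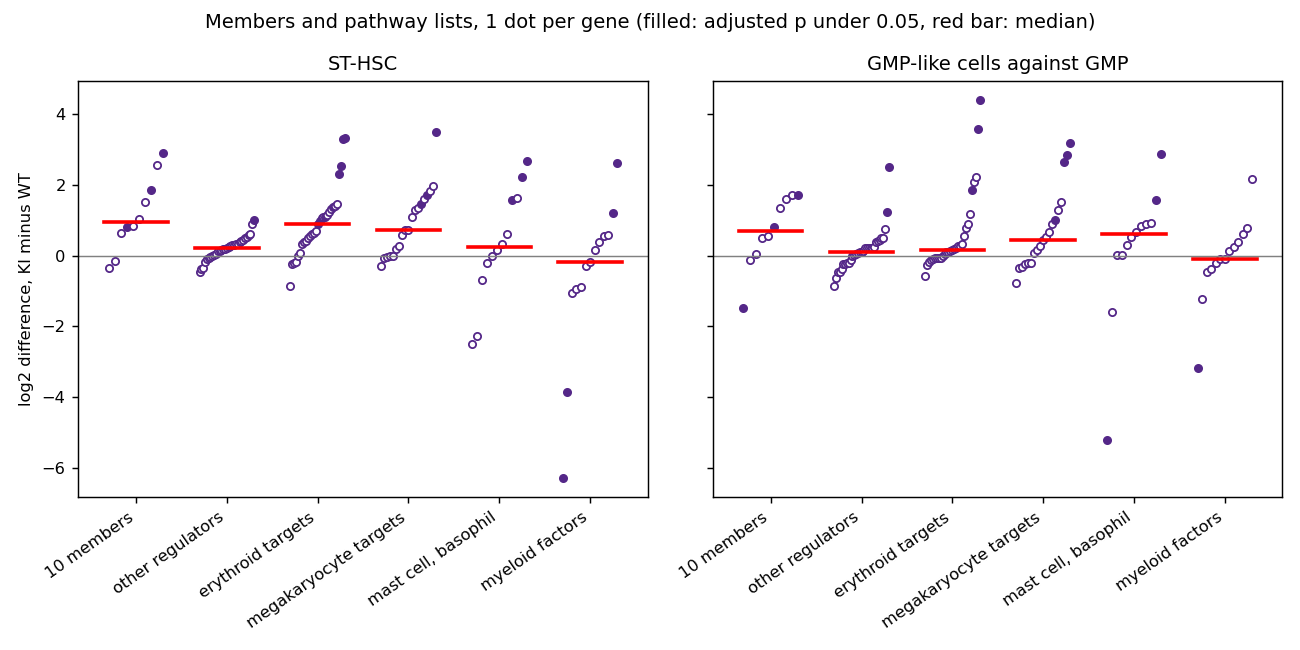
Log2 difference of KI minus WT (vertical axis) of the 10 genes and of each measured gene of 5 pathway lists in ST-HSC (left) and GMP (right), each gene as a dot that is filled if called at an adjusted p under 0.05, with a red bar at the median. In ST-HSC the medians lie at 0.94 for the 10 genes, 0.91 for erythroid and 0.73 for megakaryocyte targets, and in GMP at 0.69, 0.16 and 0.44.

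The genes whose pattern was most like that of 4 members were named by Pearson's r over the 12 arrays, after the mean of the population was subtracted. This measure holds the KI minus WT difference itself and the Xist difference of the arrays, so it is given as a description. Nearest to Gfi1b were Pdzph1 (r = 0.976), the lysosomal protease Ctsd (0.973) and Mocs1 (0.972). Pdzph1 rose by 3.86 (adjusted p = 1.32e-05) and 3.15 (3.23e-05) in the populations. Nearest to Gata2 were the lipoxygenase Alox5 (0.986), the TGF-beta coreceptor Tgfbr3 (0.984) and Ces1d (0.973), and nearest to Gata1 were the transporter Abcc4 (0.97), the elongation factor Ell2 (0.965) and Lmo4 (0.96). For Klf1 they were Cox6b2 (0.941), Ssbp2 (0.941) and Emid1 (0.903).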

How the data were processed

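RNA of 12 sorted samples was measured on 1 array each. The authors amplified the RNA linearly and applied RMA with Bioconductor (version not given in the sources used here), and the deposited file holds 1 log2 value per probe set and array. RMA aligns the arrays and compresses small differences at low signal. The 64 control probe sets were left out and 45037 tested. By the platform annotation 34945 have 1 gene symbol, 932 several and 9160 none, and no gene was named from several symbols. The 4 group means were fitted over 12 arrays with limma 3.58.1 in R 4.3.3 (8 residual and 2.52 prior degrees of freedom), and p-values were adjusted after Benjamini and Hochberg for all probe sets. The fit was tested on simulated data. SAM, used by the authors, was not run. Arrays have no read depth, and their number limits the precision. The members and lists were chosen with earlier results of these data known, and the lists from general knowledge. Named are all members, Spi1, the 4 genes of smallest p in each list and comparison, and the 3 genes most alike to Gata1, Gata2, Klf1 and Gfi1b. Other called list genes, the embryonic globins, the marker and gate genes shown and list genes named in both comparisons were added after their values were seen. The alternatives were other arrays, normalizations, filters, moderation, probe sets, tests, Xist settings, a replicate block and leaving out each array. Promoters are from RefSeq (GRCm38.p6).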

Additional observations from a re-analysis of the deposited data

How the results depend on the processing

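Over the alternatives, the 3 members called higher in ST-HSC became 0 with the methods' t-test, 6 with averaged probe sets and 1 with the Xist covariate, and were 1 to 3 without any 1 array. The 2 called higher in GMP became 1 with only the 6 GMP arrays, with a log2 difference above 1 required and with the Xist covariate, 4 with averaged probe sets and with probe sets of log2 6 or more, 0 with the methods' t-test and without the WT arrays of high Xist, and 1 to 3 without any 1 array. The 1 called lower in GMP became 0 with only the 6 GMP arrays, the methods' t-test, the replicate block, the Xist covariate and without the WT arrays of high Xist, and was 0 to 1 without any 1 array. Opposite in sign were Zfpm1 in GMP at 0.29 with averaged probe sets and 0.70 on its second probe set, Tal1 in GMP at −0.54 with the Xist covariate and −0.77 without the WT arrays of high Xist, and the difference between populations of Gata2 at 0.01 on its second probe set, a setting chosen after seeing the data. Without any 1 array Ldb1 in ST-HSC ran from −0.41 to 0.28, Tal1 in GMP from −0.32 to 0.46 and Zfpm1 in GMP from −0.21 to 0.01, and the difference between populations from −0.49 to 0.28 for Gata1, −0.58 to 0.17 for Gata2 and −0.11 to 0.21 for Nfe2. The cause was not tested. With only the 6 arrays of a population, and with the methods' t-test, fewer of all genes were called in that population too. A lower count of members there can therefore not be read as particular to them. Of all single-gene values, 646 kept direction and call, 47 lost and 25 gained the call, and 21 changed sign.

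The replicate numbers share no stated origin. Deviations of equal numbers correlated at 0.0343 to 0.0742 in ST-HSC, above all those of unequal numbers, at −0.0612 to 0.0157. In GMP equal numbers correlated at −0.0381 to −0.00398 and unequal ones at −0.0292 to 0.0412. All were small and equal numbers were not taken as pairs, while a shared origin in ST-HSC was not tested. With the replicate block Klf1 passed in ST-HSC (adjusted p = 0.00595) and GMP (0.0215), and Gata2 in ST-HSC (0.103), Nfe2 in ST-HSC (0.1) and GMP (0.099) and Lmo2 in GMP (0.0732) did not, by limma. With 1 WT array left per population, the fit without the arrays of high Xist assumes that it varies like the other groups. Signal near the array's 25th percentile, as for Hba-a1, for Rhag in WT and KI GMP-like arrays and for Kel in WT, limits what a low value shows.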
